A study of Mus musculus with 15 samples.

Results

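Brown adipose tissue, the heat-producing fat of newborn mammals, was compared between newborn mice labelled IL-33-/- and newborns labelled wild type. The comparison took every gene counted in the 8 brown-fat libraries, 4 of each genotype, out of 15 libraries in the series. All 8 were made from C57BL/6 mice at postnatal day 0.5, with no treatment named in the labels. The other 7 libraries were made from inguinal white fat at day 24 (4 wild type and 3 IL-33-/-) and served to ask whether a brown-fat difference was of another size there and, in an alternative fit, to share in the estimate of the spread. The labels do not state whether replicate libraries were separate animals, litters or preparations, so the p-values rest on the spread among these libraries, part of which may be technical.

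IL-33 is a cytokine of the interleukin-1 family that is held in the nucleus of stromal and barrier cells and released when they are damaged. Its receptor ST2, encoded by Il1rl1, sits on mast cells, regulatory T cells and innate lymphoid cells of adipose tissue. Brown adipocytes burn fatty acids through the uncoupling protein UCP1, and they do so when noradrenaline raises cyclic AMP. Tissue also carries fast transcriptional programmes that cross cell types. Immediate early genes such as Fos and Jun are transcribed within minutes of a stimulus, and glucocorticoids and fasting induce a slower set that includes Fkbp5, Klf15 and Foxo3.

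The 8 libraries held 31661512 to 41926108 counts each and between 20659 and 21611 genes with at least 1 count. Labelled knockout library 1 lay apart from the other labelled knockout libraries. On the first principal component it lay at -36.98 while labelled knockout libraries 2, 3 and 4 lay at 49.51, 24.79 and 51.38, and limma-voom gave it a quality weight of 0.209 against 0.879 to 1.86 for the other 7. Wild-type libraries 1 and 2 formed a pair, as did 3 and 4, with a chi-square per degree of freedom of 22.1 and 16.9 within these pairs and 65.3 to 84.2 across them. Among the labelled knockout libraries the value was 20.9 for libraries 2 and 4, 47.35 and 48.45 for library 3 with each of these, and 136.9 to 199.1 for pairs with library 1. None of the 12 pairs within a group agreed within sampling noise. The 12 markers on the brown adipocyte list include genes of adipocytes in general, such as Fabp4. In counts-per-million (CPM) of the total, Fabp4 was at 6500 to 10110 over the 8 libraries and Elovl3 at 0.496 to 12.2. The summed level of the list was 15460 to 19920 CPM in wild-type and 12720 to 15770 in labelled knockout libraries. These ranges overlapped (two-sided exact permutation p = 0.0571, adjusted over 15 classes 0.257). Of these classes the 4 mitochondrial-like pseudogenes had the lowest permutation p: they took 9.50% to 12.2% of counts in wild-type and 8.15% to 9.37% in labelled knockout libraries, with no overlap (two-sided exact permutation p = 0.0286, the smallest that 4 against 4 can give, adjusted 0.257). Their part in the results was not tested. In these bulk samples, fewer cells of a type and less RNA per cell cannot be told apart. Skin keratins marked 1 library: the 15 skin and mammary markers summed to 320 CPM in labelled knockout library 4 and to 9.84 to 17.6 in the other 7, and their part in the results was not tested.

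**Figure D1:**
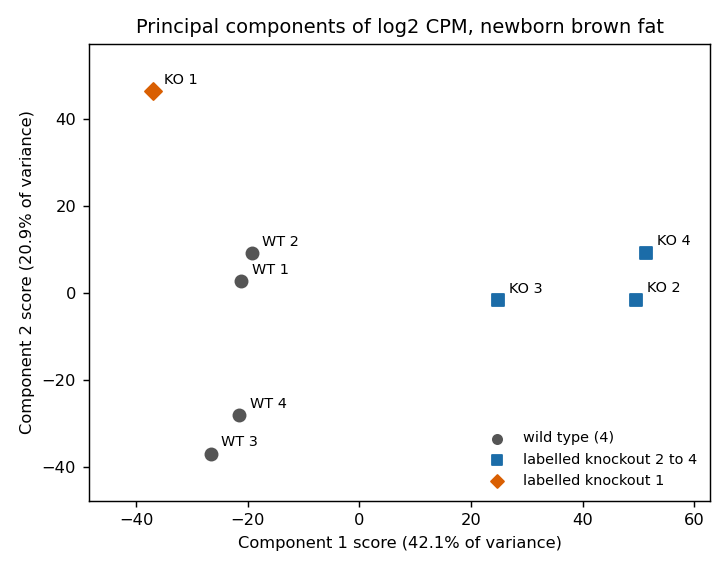
Scores of the 8 newborn brown-fat libraries on the first 2 principal components of log2 CPM, with the percentage of variance on each axis. Circles are wild type, squares labelled knockout libraries 2 to 4, and the diamond is labelled knockout library 1, which shares the negative side of component 1 with the wild-type libraries.

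The targeted gene was measured first. Il33 (ENSMUSG00000024810), in TMM-scaled CPM and in library order 1 to 4, was 1.85, 3.26, 2.06 and 1.77 in the wild-type group and 0.418, 1.77, 1.44 and 0.604 in the labelled knockout group. It was a scarce transcript everywhere, from 15 to 107 counts a library, and the groups met at 1.77 CPM. The log2 change was -1.08 (SE 0.44) and did not pass (edgeR adjusted p = 0.229). In inguinal fat of day 24 the same whole-gene count averaged 3.86 CPM in wild-type and 0.299 in labelled knockout libraries (log2 -3.73, edgeR adjusted p = 0.000435). The sources used here do not name the part of the gene that the allele lacks. The genotype of each brown library was not tested, and the libraries are called labelled knockout below. Il1rl1, the ST2 gene, was at 11.8 to 23.4 CPM in wild-type and 13.3 to 22.9 in labelled knockout libraries (log2 0.17, edgeR adjusted p = 0.730). Ucp1 stood at 2523, 3298, 6540 and 6958 CPM in wild-type and at 1576, 3277, 1911 and 3291 in labelled knockout libraries. Wild-type libraries 3 and 4 were high and libraries 1 and 2 lay within or just above the labelled knockout range, and Ucp1 did not pass (log2 -0.94, SE 0.37, edgeR adjusted p = 0.220).

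With all 8 libraries, 41 of 15796 genes (0.26%) passed in edgeR's quasi-likelihood test at a Benjamini-Hochberg adjusted p below 0.05. Of these, 29 (0.184%) were higher and 12 (0.076%) lower in labelled knockout fat, and 2930 genes had an unadjusted p below 0.05. On the same 8 libraries DESeq2 passed 1032 genes (6.53%) and limma-voom 3094 (19.6%), and edgeR passed 2 to 19 genes when any 1 library other than labelled knockout library 1 was left out. The rises included 9 immediate early genes, among them transcription factors and feedback inhibitors. The falls included genes of enzymes and signalling proteins, among them Agpat2, Grk3, Pik3r3 and Acot11. In all 41 genes every labelled knockout library lay outside the wild-type range, which held for 9.69% of all genes tested. The test that chose these genes used the same libraries and favours such separation, so it is a description. All 41 also passed without labelled knockout library 1. In 21 of the 41 genes, labelled knockout library 1 lay between the wild-type libraries and the other labelled knockout libraries.

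**Figure D2:**
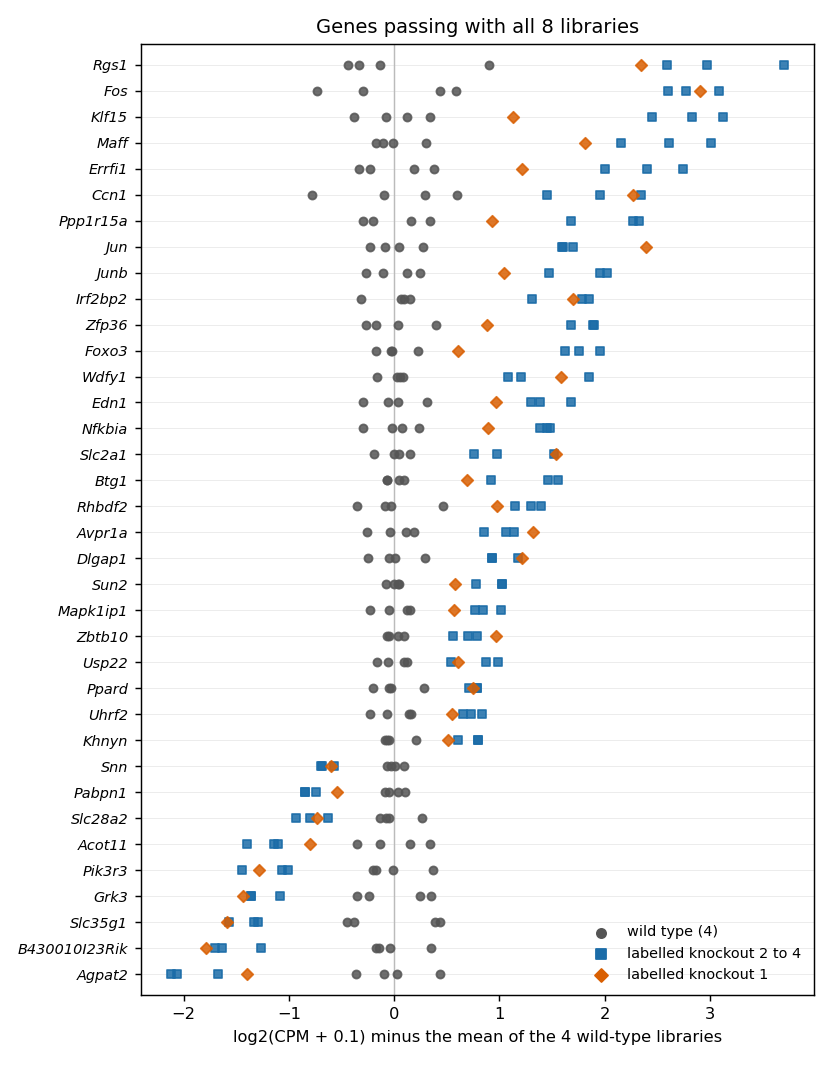
The 36 genes with a symbol that passed with all 8 libraries, as log2(CPM + 0.1) in each library minus the mean of the 4 wild-type libraries, ordered by log2 change. No labelled knockout point (squares for libraries 2 to 4, diamonds for library 1) falls within the wild-type points (circles) for any of these genes, which their choice favours. The diamond is the labelled knockout point nearest the wild type for Klf15, Foxo3 and Errfi1.

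The most stable call was Irf2bp2, a corepressor that binds the interferon regulatory factor IRF2. It stood at 31.5, 33.6, 24.3 and 32.3 CPM in wild-type libraries and at 98.3, 104, 74.9 and 109 in labelled knockout libraries. All 4 labelled knockout libraries lay far above every wild-type library. The log2 change was 1.67 (SE 0.15, edgeR adjusted p = 0.00813), and Irf2bp2 was the only gene that passed with any 1 of the 8 libraries left out (edgeR adjusted p at most 0.0430).

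AP-1 is a dimer of Fos- and Jun-family proteins, of which Fos, Jun and Junb rose. Fos was at 1.41, 3.29, 3.67 and 1.94 CPM in wild-type and at 18.6, 21.1, 15.1 and 17.0 in labelled knockout libraries, which clustered closely (log2 2.80, SE 0.29, edgeR adjusted p = 0.0122). Jun was at 13.5, 16.4, 14.9 and 19.1 CPM in wild-type and at 83.7, 48.1, 51.7 and 48.3 in labelled knockout libraries (log2 1.86, SE 0.20, edgeR adjusted p = 0.0128). Here labelled knockout library 1 was the highest of the 8. Junb, a Jun relative, was scarcer, at 1.74 to 2.54 CPM against 4.48, 6.05, 8.52 and 8.89 (log2 1.70, edgeR adjusted p = 0.0414). Fosb, Fosl2 and Jund, named after their values were seen, did not pass (log2 1.38, 1.69 and 0.95, edgeR adjusted p = 0.136, 0.0922 and 0.0534). Maff, a small Maf protein that pairs with bZIP factors, was at 6.01 to 8.40 CPM in wild-type and at 24.1, 55.3, 30.7 and 42.1 in labelled knockout libraries (log2 2.47, SE 0.25, edgeR adjusted p = 0.0122). Fos and Maff missed the threshold only without wild-type library 2 (edgeR adjusted p = 0.0516 each). Jun missed it without wild-type library 2 or 3 (0.0534 and 0.0846), and Junb whichever library was left out except labelled knockout library 1 (0.0754 to 0.139).

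Genes that end or damp such responses were also higher. Nfkbia encodes the inhibitor that holds NF-kappaB in the cytoplasm. It was at 34.1, 37.9, 26.3 and 31.9 CPM in wild-type and at 59.8, 88.3, 90.1 and 84.4 in labelled knockout libraries, with library 1 the lowest of the latter (log2 1.31, SE 0.16, edgeR adjusted p = 0.0187). Zfp36, which sends inflammatory mRNAs to decay, was at 15.6 to 24.7 CPM against 34.6, 69.9, 69.7 and 60.4 (log2 1.62, edgeR adjusted p = 0.0395). Errfi1, an inhibitor of the EGF receptor, was at 27.7 to 45.2 CPM against 81.2, 234, 140 and 184 (log2 2.17, edgeR adjusted p = 0.0395). Ppp1r15a, the phosphatase subunit that reverses the integrated stress response, was at 14 to 21.9 CPM against 32.9, 86.5, 55.4 and 83.5 (log2 1.88, edgeR adjusted p = 0.0456). In Zfp36, Errfi1 and Ppp1r15a the first labelled knockout library was the lowest of its group and still above every wild-type library. Ccn1, a secreted matrix protein, was at 21.4 to 55.8 CPM in wild-type and at 178, 143, 188 and 101 in labelled knockout libraries (log2 1.96, edgeR adjusted p = 0.0445). Nfkbia also passed without labelled knockout library 3, and the other 4 passed with 1 library left out only where that was labelled knockout library 1.

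The promoters of Fos, Jun and Nfkbia are shown because these 3 genes rose together and each has a single RefSeq start in the table used. Each sequence is the 250 bases upstream of that start in GRCm38.p6, read 5′ to 3′ on the gene's strand, with motif matches in capitals. The Fos window lies at chr12:85473640-85473889 on the plus strand, the Jun window at chr4:95052223-95052472 on the minus strand and the Nfkbia window at chr12:55492648-55492897 on the minus strand.
Fos: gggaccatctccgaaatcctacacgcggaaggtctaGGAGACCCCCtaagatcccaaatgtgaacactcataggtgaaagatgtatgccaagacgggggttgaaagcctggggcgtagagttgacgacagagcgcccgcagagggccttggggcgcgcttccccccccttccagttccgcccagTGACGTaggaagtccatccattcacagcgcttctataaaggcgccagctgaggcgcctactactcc
Jun: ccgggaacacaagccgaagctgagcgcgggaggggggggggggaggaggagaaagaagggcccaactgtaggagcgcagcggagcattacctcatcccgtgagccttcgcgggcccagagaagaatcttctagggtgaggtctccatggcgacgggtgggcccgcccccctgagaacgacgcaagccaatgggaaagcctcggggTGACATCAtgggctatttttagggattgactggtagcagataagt
Nfkbia: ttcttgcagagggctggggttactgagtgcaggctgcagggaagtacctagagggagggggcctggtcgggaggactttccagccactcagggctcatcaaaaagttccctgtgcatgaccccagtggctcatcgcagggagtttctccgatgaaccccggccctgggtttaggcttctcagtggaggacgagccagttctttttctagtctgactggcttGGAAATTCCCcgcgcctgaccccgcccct
In Fos the capitals mark an NF-kappaB motif match on the other strand, from -214 to -205 of the start, and TGACGT, the core of the cyclic AMP response element, from -66 to -61. In Jun they mark a wider pattern, spelled TGACNTCA with any base at the open letter, from -45 to -38. There it reads TGACATCA, which does not hold the core. In Nfkbia they mark an NF-kappaB motif match on the other strand from -29 to -20. Both strands were searched for 5 motifs. These were the core, the wider pattern, the AP-1 element spelled TGANTCA, the CArG box of serum response factor and the NF-kappaB site. The wider pattern contains the core where its open letter is that of the core. Of the 9 immediate early genes that passed, 5 had the core (Fos, Maff, Ccn1, Ppp1r15a and Errfi1) and 4 the wider pattern (Jun, Maff, Ppp1r15a and Errfi1). Within these windows 3 had the NF-kappaB site, 1 (Zfp36) had the CArG box and 0 had the AP-1 element as spelled. The shares among 11440 tested genes with a window were 10.6%, 7.34%, 5.52%, 1.46% and 5.80% in that order, and among all 32851 windows 6.47%, 7.49%, 3.90%, 1.47% and 6.75%. A gene with several starts, such as Maff, had more sequence searched, and a match describes the letters only. Sequence outside the 250 bases was not searched, so a gene without a match may hold the site elsewhere.

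The list of 46 immediate early genes was described whole. Its members were chosen with earlier results of these libraries known, so the values below are a description. Of 45 tested, 9 passed higher and 0 lower, beside 0.184% and 0.076% of all genes. Their median log2 change was 0.89 (0.01 over all genes), 40 of 45 had a positive value, and in 25 the groups did not overlap, beside 9.69% of all genes. Taken library by library against the wild-type mean, the median of the list was 0.889, 1.15, 0.877 and 1.13 in labelled knockout libraries 1 to 4 and -0.150 to 0.271 in wild-type libraries. Labelled knockout library 1 therefore lay with the others on this list. Members that did not pass with 8 libraries included Nr4a1, an orphan nuclear receptor, at 4.94, 5.16, 12.2 and 14.8 CPM in wild-type and 26.2, 57.04, 18.01 and 90.2 in labelled knockout libraries (log2 2.36, edgeR adjusted p = 0.102). Nr4a1 was named after its values were seen. With the DESeq2 Wald test 28 of the 45 passed, beside 6.53% of all genes.

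The glucocorticoid and fasting list was likewise chosen with earlier results known, so its counts are a description. Of its 25 tested members, 2 rose and 0 fell in edgeR, beside 0.184% and 0.076% of all genes. On the same 8 libraries 22 of the 25 had an unadjusted p below 0.05, 19 passed with DESeq2 and 21 with limma-voom. Over all 15796 genes 2930 had an unadjusted p below 0.05, and DESeq2 and limma-voom passed 6.53% and 19.6%. Klf15, which drives amino acid breakdown in the fasted state, was at 17.7, 20.6, 15.4 and 12.4 CPM in wild-type and at 35.7, 116, 89.2 and 143 in labelled knockout libraries (log2 2.54, SE 0.38, edgeR adjusted p = 0.0445). Foxo3, a transcription factor held inactive by insulin signalling, was at 41.6 to 54.8 CPM in wild-type and at 71.3, 182, 144 and 158 in labelled knockout libraries (log2 1.56, SE 0.25, edgeR adjusted p = 0.0456). In both genes labelled knockout library 1 was above all wild-type libraries but below each other labelled knockout library by a wide margin. Neither passed when any library other than labelled knockout library 1 was left out (edgeR adjusted p 0.0754 to 0.159 for both). Btg1, an antiproliferative cofactor, was at 146 to 164 CPM against 249, 422, 290 and 450 (log2 1.20, edgeR adjusted p = 0.0433).

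Lipid and glucose genes made up a smaller group. Agpat2, the acyltransferase that makes phosphatidic acid for triglyceride synthesis, was at 257, 309, 338 and 447 CPM in wild-type and at 126, 76.3, 104 and 79.0 in labelled knockout libraries. The highest labelled knockout value, that of library 1, was well below the lowest wild-type value (log2 -1.81, SE 0.21, edgeR adjusted p = 0.0167). Acot11, a thioesterase first described in cold-exposed brown fat, was at 14.7 to 23.9 CPM against 10.8, 8.49, 8.74 and 7.10 (log2 -1.13, edgeR adjusted p = 0.0496). Slc2a1, the basal glucose transporter GLUT1, was at 6.11 to 7.78 CPM against 20.4, 13.8, 11.9 and 20.2 (log2 1.24, edgeR adjusted p = 0.0455). Ppard, a nuclear receptor of fatty acid oxidation, was tightly grouped at 40.6 to 42.9 CPM in labelled knockout and 21.6 to 30.1 in wild-type libraries (log2 0.75, edgeR adjusted p = 0.0429). Slc28a2, a sodium-coupled nucleoside transporter, was at 28.1 to 37.0 CPM in wild-type and 16.2 to 20 in labelled knockout libraries (log2 -0.78, edgeR adjusted p = 0.0455).

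Several signalling genes changed. Grk3, a kinase that desensitizes G-protein-coupled receptors, was at 97.0, 104, 146 and 157 CPM in wild-type and at 45.7, 48.0, 58.2 and 48.2 in labelled knockout libraries (log2 -1.34, SE 0.17, edgeR adjusted p = 0.0255). The wild-type libraries split into the same pairs as for Ucp1 in this gene. Pik3r3, a regulatory subunit of PI3-kinase, was at 27.3, 31.2, 27.9 and 40.6 CPM in wild-type and at 12.8, 14.9, 15.6 and 11.4 in labelled knockout libraries (log2 -1.21, SE 0.16, edgeR adjusted p = 0.0307). Labelled knockout library 1 was the lowest of the 8 libraries in Grk3, and lay within the range of the other labelled knockout libraries in Pik3r3. Avpr1a, a vasopressin receptor, was at 5.41 to 7.41 CPM against 11.8 to 16.4 (log2 1.10), and Edn1, the vasoconstrictor endothelin, at 1.53 to 2.38 against 3.79 to 6.30 (log2 1.38; edgeR adjusted p = 0.0390 and 0.0456). Rgs1, a brake on G-protein signalling best known from lymphocytes, was near the detection floor in wild-type fat (0.0479 to 0.275 CPM) and at 0.919, 2.50, 1.47 and 1.11 CPM in labelled knockout libraries (log2 3.69, SE 0.56, edgeR adjusted p = 0.0414). Rhbdf2, an inactive rhomboid that carries the TNF-releasing protease to the surface, was at 10.4 to 18.3 CPM against 26.1 to 35.03 (log2 1.19, edgeR adjusted p = 0.0414).

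The remaining genes had mixed roles. Wdfy1, an endosomal adaptor of Toll-like receptor signalling, was at 31.6, 32.9, 27.6 and 32.2 CPM in wild-type and at 93.1, 71.5, 112 and 65.6 in labelled knockout libraries (log2 1.46, SE 0.17, edgeR adjusted p = 0.0167). Pabpn1, the nuclear poly(A)-binding protein, was at 35.5 to 40.8 CPM against 20.97 to 26.04 (log2 -0.74, edgeR adjusted p = 0.0390). Sun2, of the nuclear envelope, was at 152 to 165 CPM against 239 to 327 (log2 0.86, edgeR adjusted p = 0.0323). Usp22, a histone deubiquitinase, and Uhrf2, a ubiquitin ligase of chromatin that is a chromosomal neighbour of Il33, had log2 changes of 0.76 and 0.69 (edgeR adjusted p = 0.0484 and 0.0490). Uhrf2 was the only one of 17 tested neighbours of Il33 to pass in edgeR with 8 libraries, beside 0.184% higher and 0.076% lower among all genes. On these libraries 1 of the 17 passed with DESeq2 and 6 with limma-voom, beside 6.53% and 19.6% of all genes. Without labelled knockout library 1, 1 was higher (Uhrf2) and 4 lower (Plpp6, Jak2, Plgrkt and Cd274), beside 9.66% and 8.41% of all genes. Zbtb10, Khnyn, Mapk1ip1 and Dlgap1 rose by log2 0.76, 0.68, 0.80 and 1.08, and Snn, Slc35g1 and the antisense transcript B430010I23Rik had log2 changes of -0.64, -1.52 and -1.66 (edgeR adjusted p 0.0293 to 0.0493 for these 7). In Slc35g1 the wild-type libraries split into the same pairs as for Ucp1, at 9.07 and 9.55 against 16.9 and 16.3 CPM. Reads of B430010I23Rik may be those of its sense partner, since the sources used here do not give the strand setting of the counting. The other 5 genes that passed had no symbol, 2 higher and 3 lower.

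The thermogenic list, of genes for heat production and brown identity, had 0 of 39 tested members higher and 1 lower, Acot11, beside 0.184% and 0.076% of all genes. Its median log2 change was -0.09. Otop1, a proton channel enriched in brown fat, was at 54.6, 60.4, 138 and 137 CPM in wild-type and at 28.4, 10.5, 22.4 and 19.4 in labelled knockout libraries (log2 -2.27, edgeR adjusted p = 0.0660). Its groups did not overlap, but the wild-type libraries split into the same pairs as for Ucp1. Among fatty acid uptake and oxidation genes 0 of 38 passed in edgeR, 11 had an unadjusted p below 0.05, and 2 passed with DESeq2. Cpt1a, the carnitine transferase that admits fatty acids to mitochondria, was at 49.5 to 83.7 CPM against 33.8 to 41.7 (log2 -0.83), and Acsl1, which activates fatty acids, at 1798 to 2935 against 1113 to 1539 (log2 -0.84; edgeR adjusted p = 0.0778 and 0.0825). In Cpt1a and Acsl1 too the wild-type libraries split into the same pairs as for Ucp1. Oxidative phosphorylation had 0 of 78 in edgeR (14 at an unadjusted p below 0.05, 3 with DESeq2, 12 with limma-voom, which called 19.6% of all genes) and a median of 0.00052.

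Other lists had few members past the threshold, beside 0.184% higher and 0.076% lower among all genes. Triglyceride synthesis had 1 of 20 lower (Agpat2), glycolysis and glucose transport 1 of 26 higher (Slc2a1), insulin and PI3-kinase signalling 1 of 31 lower (Pik3r3), adrenergic and cyclic AMP signalling 1 of 32 lower (Grk3), acyl-CoA thioesterases 1 of 12 lower (Acot11), and splicing and poly(A) factors 1 of 42 lower (Pabpn1). The IL-33 receptor and signalling list had 0 of 19 in edgeR (3 at an unadjusted p below 0.05, 1 with DESeq2), and the type 2 immune and innate lymphoid list 0 of 14 tested members of 23 (4 and 2). No member passed by edgeR in heat shock (22 tested), reticulum and integrated stress (27), circadian clock (23), de novo lipogenesis (26), lipolysis and lipid droplet (21), TCA cycle and pyruvate (28), adipogenic factors (21), adipose progenitors (18), extracellular matrix (34), cholesterol (27), cell cycle (32) or interferon response (30). In these 12 lists the median log2 change ran from -0.08 to 0.32, and of their 306 genes 73 had an unadjusted p below 0.05, 31 passed with DESeq2 and 75 with limma-voom. Over all 15796 genes the unadjusted count was 2930, and 6.53% and 19.6% passed with DESeq2 and limma-voom. Of 143 genes on the 14 marker lists of cell types, brown adipocytes among them, and sex, 0 passed in edgeR (27, 9 and 31 in the same order). Timp3, a protease inhibitor of the matrix, came closest among matrix genes, at 110 to 151 CPM against 189 to 248 (log2 0.73, edgeR adjusted p = 0.0571).

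Leaving out labelled knockout library 1 changed the scale of the result. With 4 wild-type and 3 labelled knockout libraries, 2905 of 16071 genes (18.1%) passed in edgeR, 1553 higher (9.66%) and 1352 lower (8.41%). The same omission gave 3762 genes with DESeq2 and 3923 with limma-voom. Among the 10 largest rises that passed in edgeR only without library 1 was Irf4, a transcription factor of brown fat that is induced by fasting. It stood at 31.5, 90.7, 151 and 119 CPM in wild-type libraries, at 47.0 in labelled knockout library 1 and at 1990, 766 and 2180 in libraries 2 to 4. Library 1 lay within the wild-type range, and the log2 change went from 3.67 (edgeR adjusted p = 0.122) to 4.07 (0.00605) when it was left out.

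These genes were chosen because edgeR passed them without library 1 and not with it, which favours a place near the wild type for library 1, so its level in them is a description. Some passed with all 8 libraries by the other tools: Irf4 with DESeq2 and limma-voom (adjusted p = 0.00769 and 0.0143), Otop1 and Fndc5 likewise (4.97e-07 and 0.0117, 0.00154 and 0.00691), and G0s2 with limma-voom (0.0432) but not DESeq2 (0.744). Since limma-voom gave library 1 a quality weight of 0.209, its passes are not separate from leaving that library out. For G0s2 its log2 change was -3.66, against -0.89 in edgeR and DESeq2 with 8 libraries and -3.44 in edgeR without library 1. In the other large rises library 1 lay within, just above or below the wild-type range. Trp53inp1, a stress-induced autophagy protein, was at 51.8 to 154 CPM in wild-type, 86.8 in labelled knockout library 1 and 960 to 1345 in libraries 2 to 4 (log2 3.36 without library 1, edgeR adjusted p = 0.00300). Nr4a3, an orphan receptor of the immediate early list, was at 12.9 to 33.2 CPM in wild-type, 51.0 to 262 in labelled knockout libraries 2 to 4 and 5.10 in library 1, below every wild-type library (log2 3.04, edgeR adjusted p = 0.0149). Arl4d, a small GTPase, stood at 1.29 to 2.59 CPM in wild-type and 13.7 to 26 in libraries 2 to 4 (log2 3.37, edgeR adjusted p = 0.000279). Doc2b, Arg2, Serpina3n, Slco1a4 and Marc1 had log2 changes of 5.28, 3.79, 3.13, 3.06 and 2.98 without library 1, from wild-type levels of at most 4.61 CPM (edgeR adjusted p 0.00330 to 0.0452). In Serpina3n and Marc1 library 1 lay below all wild-type libraries.

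The largest falls, chosen in the same way, included G0s2 and Hcar1. G0s2, the inhibitor of adipose triglyceride lipase, was at 39.7, 72.7, 28.1 and 155 CPM in wild-type, 140 in labelled knockout library 1 and 2.66, 14.6 and 3.10 in libraries 2 to 4 (log2 -3.44 without library 1, edgeR adjusted p = 0.0476). Hcar1, the lactate receptor that restrains lipolysis, was at 36.3 to 69.0 CPM in wild-type, 99.8 in library 1 and 7.45 to 13.4 in libraries 2 to 4 (log2 -2.47, edgeR adjusted p = 0.00320). Pnpla2, which encodes the lipase that G0s2 inhibits, was at 2038 to 2521 CPM in wild-type, 2254 in library 1 and 3387 to 3792 in libraries 2 to 4 (log2 0.69, edgeR adjusted p = 0.00319). Without library 1 the lipolysis and lipid droplet list had 2 of 21 members higher (Pnpla2, Fitm2) and 2 lower (G0s2, Cavin1). These shares were close to the 9.66% and 8.41% of all genes. Its members Mgll and Lipa had log2 changes of -1.24 and -0.80 and did not pass (edgeR adjusted p = 0.0643 and 0.0884). Apln, an insulin-induced adipokine, and Fndc5, the precursor of irisin, had log2 changes of -2.35 and -2.16 (edgeR adjusted p = 0.00186 and 0.00226). Rasl12, Phlda3, Trim67, Tmem179 and Pwwp2b had log2 changes of -2.41, -2.20, -3.12, -2.52 and -2.12 (edgeR adjusted p 0.000999 to 0.00507), and in each of the 5 library 1 lay within or above the wild-type range. In 2 of the 10 falls library 1 lay below the wild-type range: Otop1, at 28.4 CPM, and by a small margin Fndc5, at 18.2 against at least 18.7.

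**Figure D3:**
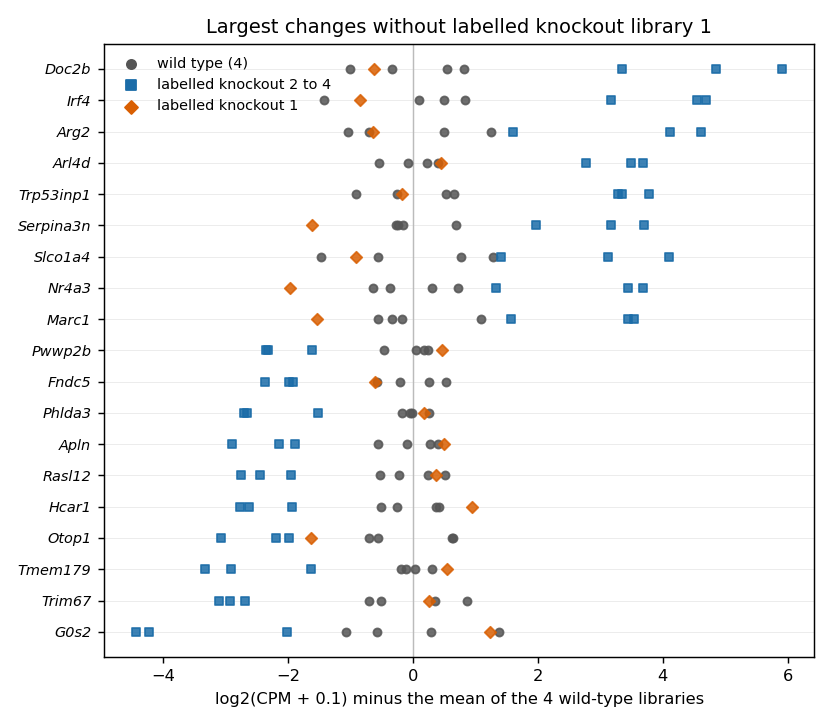
9 of the 10 largest rises and the 10 largest falls among genes that passed in edgeR only without labelled knockout library 1, as log2(CPM + 0.1) minus the wild-type mean in each library. Squares (labelled knockout libraries 2 to 4) lie apart from the wild-type circles and the diamonds (library 1) mostly among or near them, and the choice of genes favours both.

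Library 1 did not take part in that call, so it was set beside the genes called without it. It shares the wild-type libraries with the call, and the same shares over all genes give the background. Of 1529 rises also tested with 8 libraries, library 1 lay above all 4 wild-type libraries in 464 (30.3%) and below them in 487 (31.9%), while over all 15796 genes it lay above in 29.5% and below in 28.7%. Of 1351 falls it lay below in 389 (28.8%) and above in 447 (33.1%). The median log2 difference of library 1 from the wild-type mean was -0.01 for the rises and 0.03 for the falls, against 0.65 and -0.65 for libraries 2 to 4. As a set, the genes called without library 1 thus moved in neither direction in library 1.

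**Figure D4:**
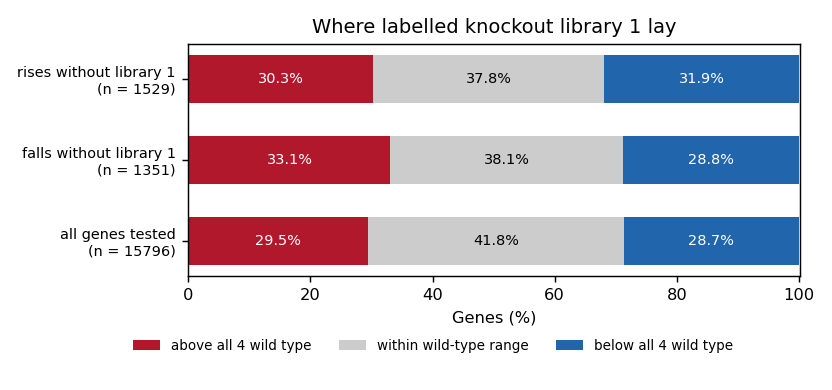
Share of genes in which labelled knockout library 1 lay above, within or below the range of the 4 wild-type libraries, for rises and falls called without it and for all 15796 genes tested. The 3 bars are close to one another, with 30.3% of rises, 33.1% of falls and 29.5% of all genes above the wild-type range.

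Gene lists differed in whether library 1 followed. Without it, 26 of 45 immediate early genes were higher and 2 lower, beside 9.66% and 8.41% of all genes. In 23 of these 26 library 1 also lay above every wild-type library, beside 30.3% of all rises. The exceptions were Klf2 and Klf4, Kruppel-like factors within the wild-type range, and Nr4a3 below it. The members of the list were chosen with earlier results of these libraries known, so this count is a description.

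The glucocorticoid and fasting list had 20 of 25 members higher without library 1 and 1 lower, Nr3c1, the glucocorticoid receptor. Over all genes 9.66% were higher and 8.41% lower. This list too was chosen with earlier results of these libraries known, so its counts are a description. The median log2 change of the list was 1.51 without library 1 and 1.25 with it. Against the wild-type mean, the list median was 0.374 in labelled knockout library 1 and 1.59, 1.29 and 1.5 in libraries 2 to 4, with -0.041 to -0.00202 in wild-type libraries. In 12 of the 20 library 1 lay above all wild-type libraries, in 8 within their range and in 0 below. Among all rises these shares were 30.3%, 37.8% and 31.9%. Lpin1, a phosphatidate phosphatase and coactivator, was at 453 to 580 CPM in wild-type, 687 in library 1 and 2687, 2083 and 2228 in libraries 2 to 4 (log2 2.14, edgeR adjusted p = 9.6e-05). Irs2, an insulin receptor substrate, was at 15.1 to 52.7 CPM in wild-type, 66.3 in library 1 and 138 to 208 in the other 3 (log2 2.23, edgeR adjusted p = 0.0110). Fkbp5, a chaperone of the glucocorticoid receptor, was at 25.9 to 68.2 CPM in wild-type, 59.5 in library 1 and 287, 199 and 230 in the others, and Tsc22d3, an anti-inflammatory target of that receptor, at 82.0 to 123, 125 and 272 to 383 (log2 2.49 and 1.59, edgeR adjusted p = 0.00426 and 0.000599). Both were named after their values were seen. Cebpd and Mt1, an adipogenic factor and a metallothionein, rose in all 4 labelled knockout libraries to 5.35, 7.09, 13.4 and 11.8 CPM from 0.764 to 2.80, and to 77.7, 130, 145 and 188 from 31.7 to 57.2 (log2 2.57 and 1.79 without library 1, edgeR adjusted p = 0.00538 and 0.00321).

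**Figure D5:**
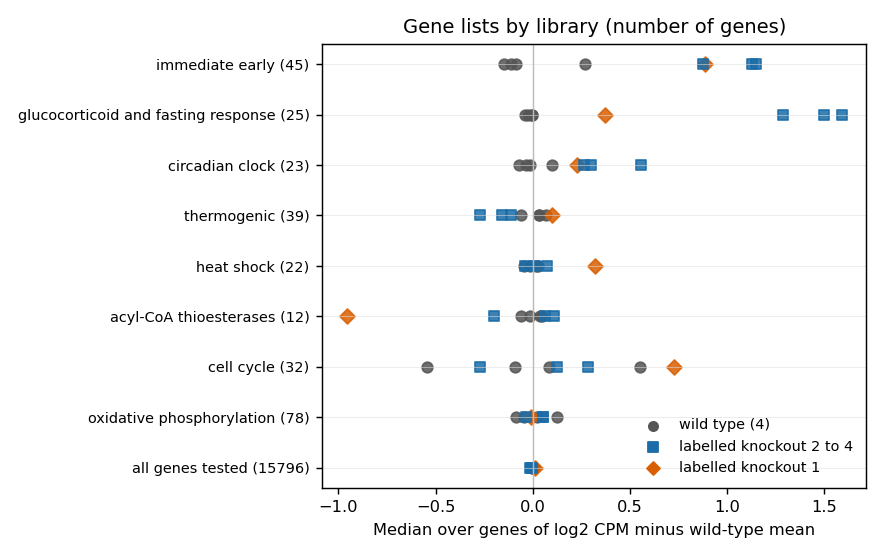
Median over the tested genes of 8 lists, and over all genes, of log2 CPM minus the wild-type mean, in each library. On the immediate early list all 4 labelled knockout libraries lie between 0.877 and 1.15, while on the glucocorticoid and fasting list the diamond (library 1) lies at 0.374 and the squares lie between 1.29 and 1.59.

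Receptor and second-messenger genes split by member. Without library 1 the adrenergic and cyclic AMP list had 4 of 32 members higher and 11 lower, beside 9.66% and 8.41% of all genes. Adrb1, the beta-1 receptor, was at 4.33 to 9.22 CPM in wild-type, 17.3 in library 1 and 2.22, 4.04 and 2.67 in libraries 2 to 4 (log2 -1.05 without library 1, edgeR adjusted p = 0.0362, and 0.09 with it, 0.954). Prkaca, the catalytic subunit of protein kinase A, was at 318 to 361 CPM in wild-type, 419 in library 1 and 221 to 248 in the others (log2 -0.52, edgeR adjusted p = 0.00546). Adcy6, an adenylyl cyclase, was at 331 to 407 CPM in wild-type and at 323, 230, 294 and 224 in labelled knockout libraries (log2 -0.55, edgeR adjusted p = 0.0132). Rgs2, a G-protein brake, was higher in all 4, at 717, 834, 903 and 812 CPM against 289 to 649 (log2 0.98, edgeR adjusted p = 0.0250). Adrb1 and Prkaca were named after their values were seen.

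In the circadian list 8 of 23 members were higher without library 1 and 4 lower, beside 9.66% and 8.41% of all genes. Per1, a clock repressor that glucocorticoids also induce, was at 76.7, 81.5, 76.7 and 166 CPM in wild-type and at 193, 246, 267 and 248 in labelled knockout libraries (log2 1.34 without library 1, edgeR adjusted p = 0.0185). Arntl, the clock activator BMAL1, was at 11.2 to 13.8 CPM against 16.7 to 20.2 (log2 0.64, edgeR adjusted p = 0.00935). All 4 labelled knockout libraries were above the wild-type range in both genes. The 4 lower members were Per3, Dbp, Hlf and Bhlhe41 (log2 -0.77, -1.14, -1.45 and -1.15, edgeR adjusted p = 0.0235, 0.0124, 0.0107 and 0.0426). Library 1 lay within the wild-type range in Per3 and Hlf and above it in Dbp and Bhlhe41. The hour of collection is not given in the labels, and its part was not tested.

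Fuel genes changed in small numbers without library 1. Thermogenic genes had 4 of 39 higher and 6 lower, and fatty acid uptake and oxidation 0 of 38 higher and 4 lower, beside 9.66% and 8.41% of all genes. Cpt1a and Acsl1 were among these 4, at log2 -0.85 and -0.92 (edgeR adjusted p = 0.0208 and 0.0112), and library 1 lay below all wild-type libraries in both. In triglyceride synthesis 3 of 20 were higher and 3 lower, the latter including Agpat2 and Gpat3, the acyltransferase of the preceding step, at 35.1 to 76.4 CPM against 24.2, 20.2, 16.7 and 23.7 (log2 -1.34, edgeR adjusted p = 0.0176). Slc2a3, the glucose transporter GLUT3, was at 9.40 to 12.5 CPM in wild-type, 10.2 in library 1 and 21.9 to 33.6 in the others (log2 1.35, edgeR adjusted p = 0.00107). Slc16a1, a lactate transporter, was at 234.1, 213.8, 569.3 and 526.5 CPM in wild-type, 260 in library 1 and 129 to 162 in the others (log2 -1.42, edgeR adjusted p = 0.0463). Trib3, a pseudokinase that binds Akt, rose by 1.08 (edgeR adjusted p = 0.0198).

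In the remaining lists the counts without library 1 stand beside 9.66% higher and 8.41% lower among all genes. Of 34 matrix genes 3 were higher, Timp3, Thbs1 and Eln, a share close to that of all genes. Thbs1, an antiangiogenic matrix protein, was at 32.9 to 53.5 CPM against 79.1, 101, 61.9 and 91.5 (log2 0.86, edgeR adjusted p = 0.0245). In the IL-33 receptor list 3 of 19 were higher, among them Rela, a subunit of NF-kappaB, at 30.8 to 36.2 CPM in wild-type, 36.3 in library 1 and 53.8 to 65.6 in the others (log2 0.86, edgeR adjusted p = 0.00102). Among splicing and poly(A) factors 6 of 42 were lower and 1 higher. Srsf2 and Clk1, a splicing factor and a kinase of splicing factors, were at 54.8 to 58.4 CPM against 38.2 to 45.9 and at 263 to 286 against 182 to 235 (log2 -0.41 and -0.42, edgeR adjusted p = 0.0133 and 0.0217). Of 15 macrophage markers 7 were higher (Cd68, Cd163, C1qa, C1qb, C1qc, Mertk and Cd14) and 1 lower (Timd4) without library 1. In CPM of the total count, Timd4 was at 1.10 to 1.23 in wild-type, 0.846 in library 1 and 0.266 to 0.695 in the others. Csf1r and Lyz2 did not pass. They were at 41.9 to 51.6 and 48.2 to 63.2 in wild-type, and at 35.3, 43.5 and 29.5 and 36.2, 51.1 and 24.0 in labelled knockout libraries 2 to 4. Cd163, a scavenger receptor of resident macrophages named after its values were seen, was at 25.6 to 34.4 CPM in wild-type, 18.2 in library 1 and 62.9, 49.7 and 41.3 in the others (log2 0.80, edgeR adjusted p = 0.00781). The macrophage marker sum was 347 to 440 CPM in wild-type, 360 in library 1 and 426 to 472 in libraries 2 to 4, and its part in the other changes was not tested.

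Library 1 had a profile of its own. It was the highest of the 8 libraries in 20.9% of genes and the lowest in 20.8%, above any other library. Among genes with a mean of at least 5 CPM, those furthest above the other 7 were Hspa1b, Bhlhe40, Hsph1, Ppp1r3b and Ddit3. Hspa1b, the inducible HSP70 chaperone, was at 42.3 CPM against at most 0.806 elsewhere, although reads may be shared with its near-identical copy Hspa1a. Hsph1, its nucleotide exchange factor, was at 99.1 CPM against 16.2 to 21.6, and Bhlhe40, a clock and hypoxia repressor, at 168 against 7.29 to 19.1. Ppp1r3b, which targets phosphatase to glycogen, was at 598 CPM in library 1, at 43.4 to 178 in wild-type libraries and at 13.1 to 60.7 in the other labelled knockout libraries, and Ddit3, a stress factor, at 65.1 against 9.60 to 21.04.

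Furthest below were Ucp3, Piwil4, Elovl3, Slc27a2 and Acot4. Of these, Ucp3, Elovl3, Slc27a2 and Acot4 handle fatty acids. Ucp3, a mitochondrial carrier related to UCP1, was at 9.24 CPM in library 1 against 42.4 to 168 elsewhere, and Slc27a2, a fatty acid transporter, at 25.01 against 110 to 271. Elovl3, the cold-induced elongase, was at 0.473 CPM against 2.27 to 12.3, and Acot4, a peroxisomal thioesterase, at 1.81 against 7.53 to 14.8. Piwil4, a small-RNA partner, was at 1.48 CPM in library 1, at 6.90 to 12.6 in wild-type and at 12.1 to 47.7 in the other labelled knockout libraries. Over the acyl-CoA thioesterase list the median in library 1 was -0.956 against the wild-type mean, with -0.201 to 0.110 in the other 3 labelled knockout and -0.0603 to 0.0469 in the wild-type libraries. Over the heat shock list it was 0.322, with -0.0419 to 0.0738 and -0.0458 to 0.0249. Over the cell cycle list it was 0.727, with -0.272 to 0.286 in the other labelled knockout libraries and a wide -0.545 to 0.551 in wild type.

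The 41 genes were set beside inguinal fat of day 24, where tissue and age differ together and cannot be told apart. The difference between the labelled knockout effects (brown minus inguinal) passed for 30 of the 41, beside 9.0% of 16858 genes, and for 32 without library 1. Since the 41 were chosen by the brown effect, a difference in its direction is favoured, and the count is a description. For Irf2bp2 the inguinal log2 change was 0.02, and the difference was 1.65 (SE 0.17, edgeR adjusted p = 7.01e-05). For Fos and Jun the inguinal values were -0.76 and -0.52, neither past the threshold (edgeR adjusted p = 0.0730 and 0.0728). The counts of inguinal changes that follow have no share over all genes beside them and are a description. In 7 of the 41 the inguinal change passed in the same direction, among them Wdfy1 (0.91), Junb (1.23), Ppard (0.69) and Slc28a2 (-1.03), with edgeR adjusted p of 0.00364, 0.00705, 0.00438 and 0.000179. For these 4 the difference between the tissues did not pass (edgeR adjusted p 0.155 to 0.847). In 3 genes it passed in the opposite direction: Acot11 rose by 2.59 in inguinal fat, Grk3 by 1.04, and Ccn1 fell by 0.95 on the log2 scale (edgeR adjusted p = 5.84e-05, 0.00177 and 0.0374).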

How the data were processed

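Polyadenylated RNA was sequenced after TruSeq stranded library preparation, per the labels' protocols. The deposited numbers are the authors' whole-number counts for each gene. Subread, its counter featureCounts, edgeR, TopHat2 2.1.0 and the mm9 build are listed, with no roles, in the submitters' processing notes. The sources used here do not give the annotation release or the strand setting. Of 37991 Ensembl identifiers, 32919 were matched to a symbol with GENCODE M21, which is of another build and gave names only. Promoter windows come from RefSeq on GRCm38.p6. All 37 mitochondrial identifiers had 0 counts in the brown libraries, so the mitochondrially encoded list was not tested, and 4 mitochondrial-like pseudogenes (blastn 2.17.0, 95% identity over 100 bases) were set apart as a class.

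Counts of the 8 brown libraries were fitted in R 4.3.3 with edgeR 4.0.16: filterByExpr with a minimum count of 10, TMM scaling, robust quasi-likelihood F-test, Benjamini-Hochberg adjusted p below 0.05. CPM values are TMM-scaled, and marker sums are CPM of the total count. Principal components used log2 CPM with a prior count of 2. Differences between tissues came from an interaction term over 15 libraries. Marker sums were compared by two-sided exact permutation tests. The steps were tested on simulated counts.

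Alternatives were DESeq2 1.42.0 size factors and Wald test, limma 3.58.1 voom with quality weights, 2 filters, non-robust dispersions, a replicate block, all 4 groups in 1 fit, and each library left out. The last was combined with DESeq2 and voom after seeing the data. Comparisons, 28 pathway lists and 14 marker lists (971 of 977 entries matched) were chosen with earlier results of these data known. Genes were named by rule: Il33, Il1rl1 and Ucp1; all that passed; the 10 largest rises and falls passing only without labelled knockout library 1 (at least 5 CPM, no overlap); for each list, the 4 members of lowest p at most; and the 5 genes furthest above and below the others for that library (mean of at least 5 CPM). The text names part of these, and 1 of the 10 rises is not reported here.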

Additional observations from a re-analysis of the deposited data

Results flagged for a closer look

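A library far from the other 3 of its group was looked for in 220 sets of 4 values, and 23 stood out by Dixon's ratio at its 95% level, where chance gives about 1 in 20. Of these, 16 were labelled knockout library 1, and many of the genes had been named because that library differed. It was far above its group in Jun (83.7 CPM), G0s2 (140.0), Trim67 (14.6), Tmem179 (13.1), Hcar1 (99.8), Rasl12 (147.0), Apln (13.0), Fndc5 (18.2), Pwwp2b (16.7), Adrb1 (17.3) and Prkaca (419.0). It was also far above in Hspa1b (42.3), Bhlhe40 (168.0), Hsph1 (99.1), Ppp1r3b (598.0) and Ddit3 (65.1). Labelled knockout library 4 stood out in the skin and mammary epithelium markers (320.0 CPM). Krt1, Krt10 and Krt5, keratins of the epidermis, were at 76.8, 66.6 and 44.95 CPM there, and Krt5 was at 0.0888 or less in the other 7. Wild-type library 2 was high in the same markers (17.6 CPM), in Serpina3n (2.44), in Marc1 (4.61) and in Rgs1 (0.275). Wild-type library 1 was high in Khnyn (55.2 CPM) and wild-type library 4 in Per1 (166.0).

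The labelled knockout effect differed between newborn brown fat and inguinal fat of day 24 in edgeR's interaction test for 30 of the 41 genes that passed, and for Il33 and Ucp1. Among immediate early genes the difference (brown minus inguinal, log2) was 3.57 for Fos, 2.38 for Jun, 2.23 for Maff, 2.41 for Errfi1, 2.92 for Ccn1, 1.36 for Zfp36 and 1.32 for Nfkbia. Among metabolic and signalling genes it was 2.30 for Klf15, 1.58 for Foxo3, 1.57 for Btg1, 1.69 for Edn1, 3.44 for Rgs1, -2.22 for Agpat2, -3.71 for Acot11, -2.37 for Grk3 and -1.17 for Pik3r3. It was 1.65 for Irf2bp2, 0.71 for Sun2, 1.08 for Zbtb10, 1.11 for Mapk1ip1, 0.54 for Khnyn, 0.99 for Usp22, 0.84 for Uhrf2 and 1.14 for Dlgap1. It was -0.97 for B430010I23Rik, -0.73 for Pabpn1 and -1.50 for Slc35g1, and 0.85, -1.38 and -1.43 for ENSMUSG00000059937, ENSMUSG00000084972 and ENSMUSG00000091299. For Il33 it was 2.65, with a log2 change of -3.73 in inguinal and -1.08 in brown fat, and for Ucp1 -2.15, with 1.22 and -0.93.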

How the results depend on the processing

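The count of 41 genes (29 higher, 12 lower) depended on the libraries and on the test. Leaving out 1 library gave 2 to 2905 genes (2 to 1553 higher, 0 to 1352 lower): 10, 2, 3 and 15 when wild-type library 1, 2, 3 or 4 was the one omitted, and 2905, 8, 19 and 5 for the same order of labelled knockout libraries. The count was 67 with no filter (51 higher), 1032 with DESeq2 (629 and 403), 3094 with limma-voom (1585 and 1509) and 1151 where the inguinal groups shared the fit (701 and 450). Omitting labelled knockout library 1 as well brought DESeq2 to 3762 (1993 and 1769) and limma-voom to 3923 (2016 and 1907). A minimum of 5 CPM left 7 lower. DESeq2 size factors gave 42 and non-robust dispersions 37. With the replicate block 7 passed (6 higher, 1 lower), but same-numbered libraries correlated at 0.0934, -0.0398, 0.173 and 0.0992, so the numbers are not taken to pair them.

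Of the 36 named genes that passed, 36 kept the call with DESeq2, limma-voom and all groups, 31 with no filter, 32 with non-robust dispersions and 7 under the replicate block. Reversals occurred only in named genes that had not passed, and the cause was not tested. They were, under limma-voom and the replicate block, Ppp1r3b (-1.65 and -0.68) and Adrb1 (-1.07 and -0.40), Ddit3 under limma-voom (-0.19) and Slc27a2 under the block (-0.30). Without labelled knockout library 1 they were Ppp1r3b (-1.73 with DESeq2, -2.01 with limma-voom), Ddit3 (-0.37 and -0.35) and Adrb1 (-1.04 and -1.25). With 1 library left out, Bhlhe40 ran from -0.0104 to 2.31, Ppp1r3b from -1.74 to 1.14, Ddit3 from -0.38 to 0.92, Slc27a2 from -0.23 to 0.41 and Adrb1 from -1.05 to 0.37. The cell cycle list median was 0.20 with 8 libraries and -0.11 without labelled knockout library 1. Each library held 31661512 counts or more, but low genes such as Il33 and Rgs1 rest on few counts.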

Other observations

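Y-linked transcripts were present in all 8 libraries, with Xist at 0.564 to 6.19 CPM. Among Y-linked housekeeping genes, Eif2s3y and Ddx3y had log2 changes of opposite sign, and neither passed with 8 libraries. Eif2s3y, a translation initiation factor subunit, was at 127, 111, 139 and 135 CPM in wild-type and at 77.2, 96.0, 67.6 and 90.0 in labelled knockout libraries, with no overlap (log2 -0.63, SE 0.13, edgeR adjusted p = 0.0725, and -0.60 with 0.0133 without labelled knockout library 1). Ddx3y, an RNA helicase, was at 118 to 134 CPM in wild-type and at 122, 190, 153 and 163 in labelled knockout libraries (log2 0.30, edgeR adjusted p = 0.255). Both were picked out after their values were seen.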
